A study of Mus musculus with 24 samples.

Results

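The CXCR3 and CXCR6 chemokine axis was taken here as 7 genes listed by name: the CXCR3 ligands Cxcl9, Cxcl10 and Cxcl11, their receptor Cxcr3, the CXCR6 ligand Cxcl16, its receptor Cxcr6, and Ccl5, a chemokine made by activated T cells. The rule named genes and used no measured value, but the genes were chosen with earlier results of these data known. The 7 were found by GENCODE M21 symbol among 39017 gene IDs of the count table. All 7 were among the 16248 genes that passed the filter on low counts.

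Chemokines are small secreted proteins that guide leukocytes along gradients through G protein-coupled receptors. CXCL9, CXCL10 and CXCL11 are induced by interferon gamma and attract effector T cells and NK cells that carry CXCR3, and CXCL10 is also induced by type I interferon. CXCL16 is made as a membrane-anchored protein that can be shed, and its receptor CXCR6 is carried by tissue-resident and effector T cells. In alopecia areata (AA), an autoimmune loss of hair in which CD8+ T cells gather around the hair follicle, these chemokines are known as part of the interferon response of the skin.

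RNA of dorsal skin from female C3H/HeJ mice gave 24 libraries in 4 groups of 6. C3H/HeJ is an inbred strain in which skin grafted from an affected mouse brings on AA, so the disease here was graft-induced in mice of 1 strain. Healthy and AA mice were untreated and were sampled at week 12, though Vec12w stands in the AA sample names and the labels do not say if that means a vehicle. In the Systemic JAK1i group, mice with AA were fed Cmpd A, a JAK1-selective inhibitor, at about 100 mg/kg a day and skin was biopsied from the living animal after 4 weeks. The 8w off Tx samples were terminal samples taken 8 weeks after dosing ended. By the study's methods the same 6 mice gave both of these sets, and the letters A to F do not say which samples share a mouse, so the 2 sets are not from independent animals. The age label is about 30 weeks at termination for all groups. Each comparison with Systemic JAK1i also holds a difference in week of sampling and between live and terminal sampling, and these cannot be told apart from the treatment. By the study's hair scores, the treated mice followed off treatment had some hair before dosing and again at the end. The untreated AA mice started with no fur. In comparisons with AA this difference cannot be told apart from the treatment either. The study asked whether treatment that restored hair also changed the skin transcriptome, and whether this lasted after dosing stopped.

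Total counts per library ranged from 3649611 to 6407908 in Healthy, 3859132 to 8472874 in AA, 5559273 to 11233020 in Systemic JAK1i and 3444193 to 5766105 in 8w off Tx skin. Keratinocyte markers (Krt5, Krt14, Krt1, Krt10 and Trp63) summed to at least 6157.6 CPM in every library. Skeletal muscle genes, from the muscle layer under the skin, varied most, from 263 CPM in Healthy E to 35685 CPM in 8w off Tx E as a sum of 10 genes. In bulk skin, fewer cells of a type and less RNA per cell cannot be told apart. Levels below are CPM, counts scaled by TMM-normalized library size, a called difference is one with a Benjamini-Hochberg adjusted p below 0.05 in edgeR's quasi-likelihood test over all genes tested, and ± after a log2 fold change is its standard error.

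Cxcl9 (ENSMUSG00000029417, GRCm38 chr5:92321347-92328079), Cxcl10 (ENSMUSG00000034855, chr5:92346638-92348889) and Cxcl11 (ENSMUSG00000060183, chr5:92359544-92365485) are neighbours on the minus strand of chromosome 5, within 44.1 kb. GENCODE M21 annotates Cxcl11 as a polymorphic pseudogene in the C57BL/6J reference. Promoters of 4 of the 7 genes were in the RefSeq table (GRCm38.p6), and those of Cxcl9, Cxcl10 and Cxcr6 are shown to set a pair of ligand genes with large changes beside a receptor gene with smaller ones. Each is the 250 bases before the RefSeq start, read 5′ to 3′ along the gene. Capitals mark matches on either strand to 3 short motifs: TTCNNNGAA (GAS, the gamma-activated sequence), GAAANNGAA (core of the interferon-stimulated response element) and GGNNNTTCC (kB, the NF-kB element). The windows are chr5:92328080-92328329 for Cxcl9 and chr5:92348890-92349139 for Cxcl10, both on the minus strand, and chr9:123806227-123806476 on the plus strand for Cxcr6.
Cxcl9: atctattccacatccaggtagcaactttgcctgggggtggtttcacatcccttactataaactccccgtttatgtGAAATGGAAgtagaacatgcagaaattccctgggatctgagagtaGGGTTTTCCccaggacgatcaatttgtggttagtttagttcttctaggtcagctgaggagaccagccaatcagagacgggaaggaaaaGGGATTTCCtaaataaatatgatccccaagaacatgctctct
Cxcl10: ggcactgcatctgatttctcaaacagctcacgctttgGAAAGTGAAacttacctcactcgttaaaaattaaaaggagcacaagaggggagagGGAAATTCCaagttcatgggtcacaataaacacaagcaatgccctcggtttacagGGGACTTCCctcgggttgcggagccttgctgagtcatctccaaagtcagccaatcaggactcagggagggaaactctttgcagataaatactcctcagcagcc
Cxcr6: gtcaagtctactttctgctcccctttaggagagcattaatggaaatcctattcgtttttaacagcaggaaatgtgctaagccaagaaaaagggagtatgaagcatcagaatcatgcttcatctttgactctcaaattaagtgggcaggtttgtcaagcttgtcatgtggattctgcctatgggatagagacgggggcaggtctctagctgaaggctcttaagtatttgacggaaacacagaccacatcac

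The Cxcl9 window held 1 match to GAAANNGAA, whose first base was 175 bases before the start, and 2 matches to GGNNNTTCC, 130 and 42 bases before it. The Cxcl10 window held 1 match to GAAANNGAA, 213 bases before the start, and GGNNNTTCC matches 158 and 103 bases before it, the former on both strands. None of the 3 motifs was found in the Cxcr6 or Cxcr3 window (Cxcr3, chrX:101734148-101734397, minus strand), and TTCNNNGAA was in none of the 4. Among 32851 RefSeq promoters of the same length, 7.13% held GAAANNGAA, 15.7% held GGNNNTTCC and 7.02% held TTCNNNGAA. A match is a run of letters and not a tested binding site.

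The CXCR3 ligands were the members with the largest differences between AA and Healthy skin. Cxcl9 ranged from 1.58 to 8.93 CPM in Healthy libraries (median 5.31) and from 70.9 to 247 CPM in AA libraries (median 121). No AA library overlapped a Healthy one, and AA E was the highest and AA F the lowest of the diseased set. Cxcl9 was 25.4-fold higher in AA (log2 fold change 4.67 ± 0.63, adjusted p = 1.2e-05). Under Systemic JAK1i it ranged from 2.85 to 39.8 CPM (median 10.8). Every treated library lay below every AA library, and the treated value of 39.8 CPM came from library A, with the next at 13.5 CPM. Cxcl9 was 9.80-fold lower under Systemic JAK1i than in AA (log2 fold change -3.29 ± 0.56, adjusted p = 0.00011), and -3.90 without Systemic JAK1i A. The 8w off Tx libraries ranged from 18.1 to 392 CPM (median 106), above every Healthy library, with library E lowest and library B highest.

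Cxcl10 was read at 1.76 to 5.69 CPM in Healthy (median 4.78), 19.3 to 54.5 CPM in AA (median 32.9), 3.42 to 9.88 CPM in Systemic JAK1i (median 4.62) and 6.86 to 81.0 CPM in 8w off Tx libraries (median 35.7). The AA and 8w off Tx libraries all lay above the Healthy ones, and the treated libraries all lay below those of AA. Its log2 fold change was 3.13 ± 0.45 in AA against Healthy (adjusted p = 1.4e-05) and -2.80 ± 0.42 in Systemic JAK1i against AA (adjusted p = 2.0e-05). Of its 2252 exonic bases, 133 lie opposite exons of Art3.

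Cxcl11 was read at 0.527 to 4.80 CPM in Healthy (median 3.02), 13 to 48.5 CPM in AA (median 24.3), 2.71 to 5.54 CPM in Systemic JAK1i (median 3.445) and 4.64 to 82.3 CPM in 8w off Tx libraries (median 25.5). AA stood clear of both Healthy and Systemic JAK1i libraries, while 8w off Tx E, at 4.64 CPM, fell within the Healthy range. The log2 fold change was 3.29 ± 0.53 in AA against Healthy (adjusted p = 3.7e-05) and -2.89 ± 0.49 in Systemic JAK1i against AA (adjusted p = 5.8e-05). Of the 3794 exonic bases of Cxcl11, 41.7% lie opposite Gm2673, a processed pseudogene, so its level is uncertain where the counting did not use strand, a setting not given in the sources used here.

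**Figure D1:**
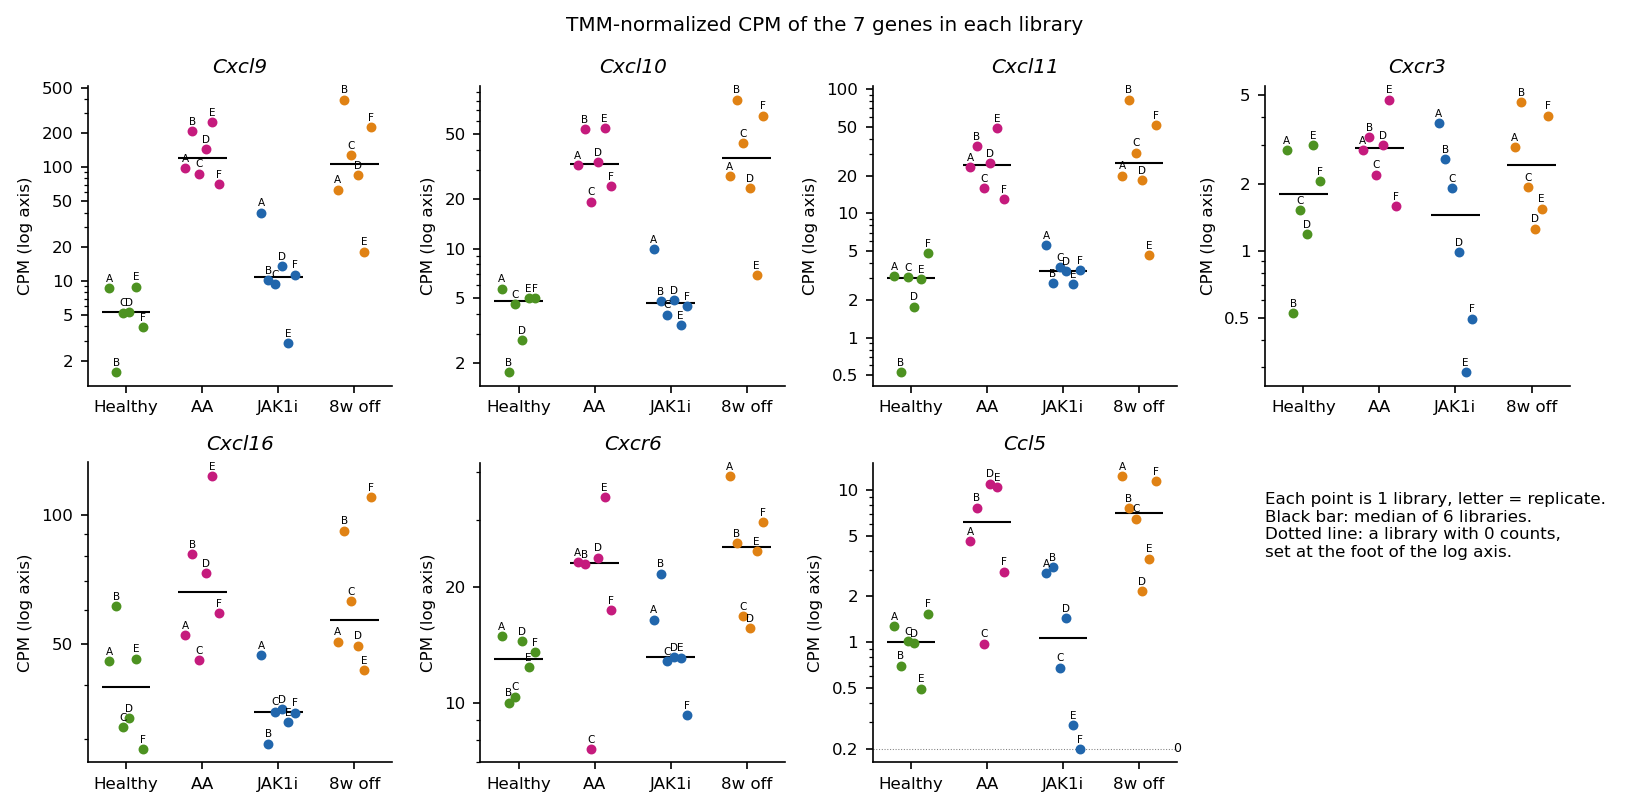
TMM-normalized CPM (log axis) of the 7 genes in each of the 24 libraries, with the replicate letter beside each point and a bar at the median of 6. Cxcl9, Cxcl10 and Cxcl11 in AA lie wholly above Healthy and Systemic JAK1i libraries, while Cxcr3 overlaps between all groups.

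Cxcr3 (ENSMUSG00000050232, chrX:101731535-101734269), the receptor of these ligands, was low in every group, with 62 to 92 counts in all per group of 6 libraries. It ranged from 0.527 to 2.98 CPM in Healthy (median 1.79), 1.59 to 4.78 CPM in AA (median 2.91), 0.285 to 3.74 CPM in Systemic JAK1i (median 1.45) and 1.26 to 4.66 CPM in 8w off Tx libraries (median 2.42). The groups overlapped throughout. The log2 fold change of AA against Healthy was 0.68 ± 0.47 (95% interval -0.24 to 1.60, adjusted p = 0.26), and that of Systemic JAK1i against AA was -0.85 ± 0.46 (95% interval -1.76 to 0.054, adjusted p = 0.13). The second difference was called without Systemic JAK1i A (log2 fold change -1.27, adjusted p = 0.030) and by limma-voom (-1.30, adjusted p = 0.017).

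Cxcl16 (ENSMUSG00000018920, chr11:70453983-70459984), the ligand of CXCR6, had the highest level per length of the 7 genes in Healthy skin, a mean of 12.3 ± 2.66 TPM (SD, n = 6) in the deposited TPM, against 4.35 ± 1.83 for Cxcl10 and 0.501 ± 0.293 for Cxcr3. In CPM it ranged from 28.5 to 61.1 in Healthy (median 39.6), 45.8 to 123 in AA (median 66.1), 29.2 to 47.0 in Systemic JAK1i (median 34.7) and 43.3 to 110 in 8w off Tx libraries (median 56.7). Healthy B stood above the other Healthy libraries at 61.1 CPM, and AA C was the only AA library within the treated range. Cxcl16 rose 1.76-fold in AA (log2 fold change 0.81 ± 0.24, adjusted p = 0.010) and was 2.03-fold lower under Systemic JAK1i than in AA (log2 fold change -1.02 ± 0.24, adjusted p = 0.0016). Of its 3021 exonic bases, 552 lie opposite exons of Zmynd15, which changed the same way (log2 fold change 1.12 ± 0.26 in AA against Healthy, adjusted p = 0.0017, and -1.32 ± 0.26 in Systemic JAK1i against AA, adjusted p = 0.0003), and the part of reads from Zmynd15 in the Cxcl16 counts was not tested.

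Cxcr6 (ENSMUSG00000048521, chr9:123806475-123811760, plus strand), the receptor of CXCL16, ranged from 10.01 to 14.9 CPM in Healthy (median 13) and from 7.59 to 34.3 CPM in AA libraries (median 23.1). The other 5 AA libraries lay above every Healthy one, and AA C lay below all of them. The rise in AA was 1.71-fold (log2 fold change 0.78 ± 0.26, adjusted p = 0.021), and it was not called without AA E, the highest AA library (log2 fold change 0.60, adjusted p = 0.075). Systemic JAK1i libraries ranged from 9.26 to 21.7 CPM (median 13.1), and 8w off Tx libraries from 15.7 to 38.9 CPM (median 25.4), all above Healthy. Systemic JAK1i against AA gave a log2 fold change of -0.59 ± 0.26 (95% interval -1.10 to -0.087, adjusted p = 0.062). That difference was called without AA C (-0.76, adjusted p = 0.0069) and without Systemic JAK1i B, the highest treated library (-0.73, adjusted p = 0.027). Cxcr6 lies within the span of Fyco1 on the other strand and shares no exonic base with it.

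Ccl5 (ENSMUSG00000035042, chr11:83525778-83530518), a ligand of CCR1 and other CC chemokine receptors, rested on few counts, 35 in all Healthy libraries together and 203 in all 8w off Tx libraries. It ranged from 0.496 to 1.54 CPM in Healthy (median 1.005), 0.979 to 11 CPM in AA (median 6.15), 0 to 3.13 CPM in Systemic JAK1i (median 1.06) and 2.16 to 12.3 CPM in 8w off Tx libraries (median 7.06). AA C, at 0.979 CPM, was within the Healthy range and the other 5 AA libraries were above it. Systemic JAK1i F had 0 counts, which allows up to 0.496 CPM at 3 counts, a limit of counting error only. In the deposited TPM the same library was read at 2.11, against 2.36 to 4.57 TPM in Healthy libraries, so the 2 measures differ on this gene. Ccl5 was 5.99-fold higher in AA than in Healthy (log2 fold change 2.58 ± 0.64, adjusted p = 0.0017) and 4.54-fold lower under Systemic JAK1i than in AA (log2 fold change -2.18 ± 0.58, adjusted p = 0.0031).

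Across the comparisons, 6 of the 7 genes rose in AA against Healthy, beside 20.9% of all genes tested that were called higher, and Cxcr3 did not pass. The members' median log2 fold change was 2.58, against 0.0011 over all genes tested. At the study's own thresholds, FDR below 0.001 and a change of more than 4-fold, Cxcl9, Cxcl10 and Cxcl11 passed, 3 of 7 beside 2.51% of all genes. The study had already named these 3 as raised in AA in the same data, so their passing was known beforehand. The same 3 had no overlap between AA and Healthy libraries, beside 8.17% of genes with AA wholly above Healthy. In Systemic JAK1i against AA, 5 of 7 fell, beside 24.8% of genes called lower, and 3 of 7 had no overlap, beside 13.8%. Their median was -2.18, against -0.0061 over all genes. The AA libraries stand in both comparisons, so the 2 sets of values are not independent.

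In Systemic JAK1i against Healthy, 0 of the 7 genes were called by edgeR's quasi-likelihood test, beside 1.05% of genes called in either direction, and 0 were called by DESeq2 or limma-voom. At an unadjusted p below 0.05 edgeR called 1 gene, Cxcl9, with a log2 fold change of 1.37 ± 0.65 (95% interval 0.093 to 2.66, adjusted p = 0.28). Without Systemic JAK1i A it was 0.77 (adjusted p = 0.61). The 95% intervals of the other 6 genes differed in width. They were narrowest for Cxcl16 (-0.69 to 0.27) and Cxcr6 (-0.33 to 0.70). The lowest bound was -1.12, for Cxcr3, and the highest was 1.77, for Ccl5, both genes with few counts. All 6 intervals held 0, and at this depth and spread the lack of a call does not show equal levels.

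The ligands were high in skin sampled after dosing ended. In 8w off Tx against Healthy, 6 of 7 genes rose, beside 16.9% of all genes called higher. Mitochondrial rRNA and tRNA took 3.28 to 5.58% of counts in 8w off Tx libraries, wholly above AA (1.82 to 2.51%) and Systemic JAK1i (2.37 to 3.07%) and overlapping Healthy (1.34 to 4.20%), and their part in the members' values was not tested. Cxcl9 was 27.2-fold higher (log2 fold change 4.77 ± 0.63, adjusted p = 2.0e-05), Cxcl10 9.96-fold, Cxcl11 12.7-fold and Ccl5 6.80-fold. Cxcr6 had a log2 fold change of 0.99 ± 0.26 (adjusted p = 0.0059), and Cxcl16 one of 0.73 ± 0.24 (adjusted p = 0.026), which was -0.12 in TPM before centring. In the same TPM Ccl5 was at 0.65 and not called (adjusted p = 0.13 by limma). The Cxcl16 call was lost without any 1 of Healthy C, Healthy D, Healthy F, 8w off Tx B or 8w off Tx F (adjusted p = 0.060, 0.056, 0.059, 0.069 and 0.093). Cxcr3 had a log2 fold change of 0.56 ± 0.47 (adjusted p = 0.38).

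In 8w off Tx against Systemic JAK1i, 6 of 7 genes rose, beside 19.4% called higher, with log2 fold changes of 3.39 ± 0.56 for Cxcl9, 2.99 ± 0.42 for Cxcl10, 3.27 ± 0.48 for Cxcl11, 2.37 ± 0.57 for Ccl5, 0.94 ± 0.24 for Cxcl16 and 0.80 ± 0.26 for Cxcr6 (adjusted p from 2.2e-05 to 0.018). In TPM before centring Cxcl16 and Cxcr6 were at -0.35 and -0.43, and Ccl5 was at 0.14 and not called (adjusted p = 0.73 by limma). The Cxcr6 call was lost without 8w off Tx A (log2 fold change 0.65, adjusted p = 0.052). Without Systemic JAK1i A the difference of Cxcl9 was 4.00. In every one of the 7 genes at least 1 of the 8w off Tx libraries fell within the treated range. In 8w off Tx against AA, edgeR's quasi-likelihood test called 0 of 7, as did DESeq2 and limma-voom, beside 1.37% of genes in either direction, and 0 of 7 had an unadjusted p below 0.05. The log2 fold changes ran from -0.12 for Cxcr3 to 0.37 for Cxcl11, and their 95% intervals lay between -1.01 and 1.22. The widest, for Cxcl9, was -0.94 to 1.14.

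**Figure D2:**
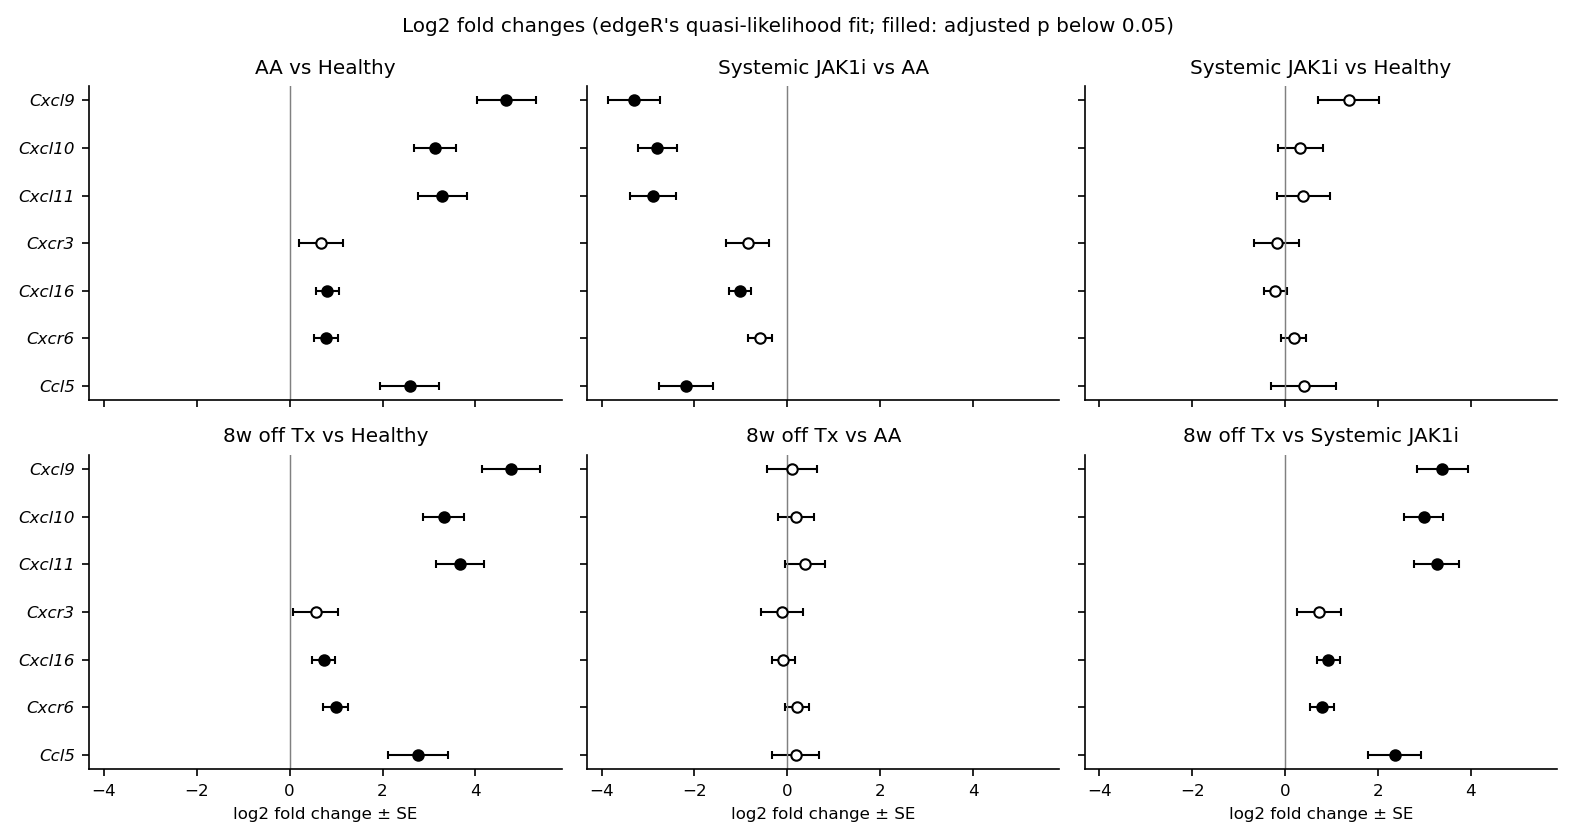
Log2 fold changes (x axis) ± SE of the 7 genes in the 6 comparisons, from edgeR's quasi-likelihood fit of 24 libraries, filled where the adjusted p was below 0.05. Filled points number 6 in AA vs Healthy, 5 in Systemic JAK1i vs AA, 0 in Systemic JAK1i vs Healthy, 6 in 8w off Tx vs Healthy, 0 in 8w off Tx vs AA and 6 in 8w off Tx vs Systemic JAK1i. Of the filled points, Cxcl16 in 8w off Tx vs Healthy and Cxcl16 and Cxcr6 in 8w off Tx vs Systemic JAK1i lay on the other side of 0 in uncentred TPM.

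In the deposited TPM the calls depended on centring. On log2(TPM + 0.1) the median of all genes itself moved by -0.29 in AA against Healthy, 0.65 in Systemic JAK1i against AA, 0.34 in Systemic JAK1i against Healthy, -0.80 in 8w off Tx against Healthy and -1.16 in 8w off Tx against Systemic JAK1i. Against those shifts, limma called 3, 3, 0, 3 and 2 of the 7 genes. With each library centred on its median, an alternative chosen after seeing the data, it called 5, 6, 0, 6 and 5. There Cxcr6 was not called in AA against Healthy (log2 fold change 0.58, adjusted p = 0.11 by limma) or in 8w off Tx against Systemic JAK1i (0.72, adjusted p = 0.055), and Cxcr3 was called in Systemic JAK1i against AA (-1.09, adjusted p = 0.029). TPM values are therefore used here only to set genes of the same library beside each other.

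The 3 CXCR3 ligands did not move by the same factor. Within a library, Cxcl10 made up most of their summed TPM in Healthy skin, with 57.6 ± 5.23% (SD, n = 6) against 20.3 ± 4.16% for Cxcl9 and 22.1 ± 4.93% for Cxcl11. In AA the share of Cxcl9 was 41.6 ± 4.02%, near the 42.4 ± 4.27% of Cxcl10, and Cxcl11 had 16 ± 1.42%. The share of Cxcl9 was 29.7 ± 9% under Systemic JAK1i and 36.5 ± 4.72% in 8w off Tx skin. No AA library overlapped a Healthy one in the share of Cxcl9, which ran from 15.2 to 27.2% in Healthy and from 35.1 to 45.6% in AA.

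**Figure D3:**
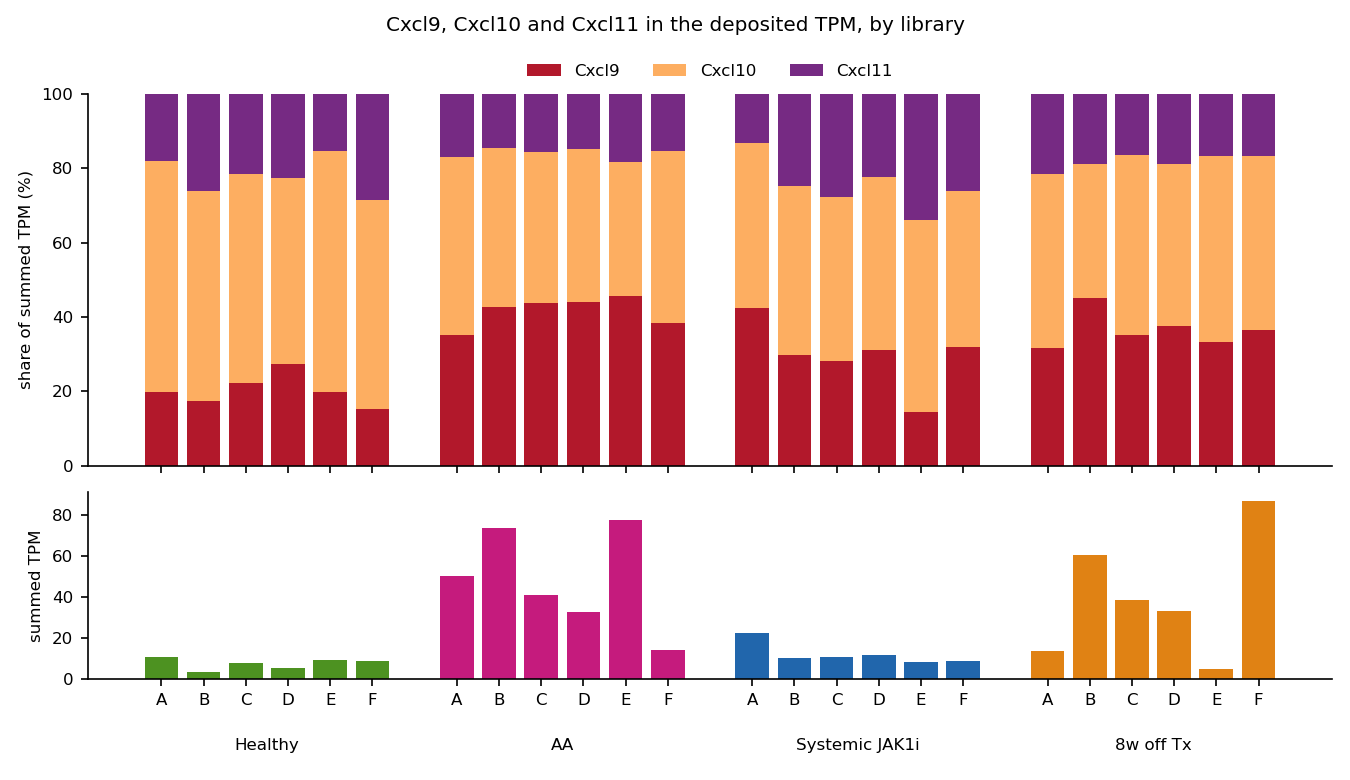
Share of Cxcl9, Cxcl10 and Cxcl11 in their summed deposited TPM (upper panel, %) and that sum (lower panel, TPM) in each library. The Cxcl9 share is 15.2 to 27.2% in Healthy and 35.1 to 45.6% in AA, and the sum is not comparable between groups beyond the shifts of TPM given in the text.

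In CPM the log2 ratio of Cxcl9 to Cxcl10 was 0.33 ± 0.48 (SD, n = 6) in Healthy and 1.91 ± 0.28 in AA, with no overlap, a difference of 1.58 (exact permutation test, two-sided, p = 0.0022, the smallest that 6 against 6 can give, adjusted p = 0.0097 over 18 tests). The log2 ratio of Cxcl9 to Cxcl11 differed by 1.44 in the same comparison, with the same p. In 8w off Tx against Healthy the 2 ratios differed by 1.34 and 1.08, each at the same p. Under Systemic JAK1i the ratio of Cxcl9 to Cxcl10 was 1.09 ± 0.72, lower than in AA by 0.82 (exact permutation test, p = 0.013, adjusted p = 0.039). That call was lost in 8 of 12 fits that each left out 1 library, and only the 4 without AA A or without Systemic JAK1i A, D or F kept it. In TPM the difference was -0.49 (exact permutation test, adjusted p = 0.056). The ratio of Cxcl9 to Cxcl11 was lower by 0.36 in 8w off Tx than in AA (exact permutation test, p = 0.011, adjusted p = 0.039), and this too was lost in 8 of 12. It was also lost in TPM (-0.39, adjusted p = 0.061 by the exact permutation test) and without 8w off Tx A and E (-0.23, adjusted p = 0.13).

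Cxcl10 and Cxcl11 kept to 1 ratio more closely. Their log2 ratio averaged 0.61 in Healthy, 0.46 in AA, 0.44 with treatment and 0.35 in 8w off Tx skin. None of the 6 comparisons passed the exact permutation test, with adjusted p from 0.29 to 0.86. In 8w off Tx against Healthy the difference was called in 1 of 12 fits that each left out 1 library, and it ran from -0.37 to -0.15. The sign of the difference in AA against Healthy, -0.14 in CPM, was turned in TPM (0.26).

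The receptors and Ccl5 were also set against the summed CPM of Cd3d, Cd3e and Cd3g, parts of the T cell receptor complex. That sum ranged from 11.8 to 28.3 CPM in Healthy, 13.7 to 36.5 CPM in AA, 11.4 to 15.1 CPM in Systemic JAK1i and 16.7 to 34.7 CPM in 8w off Tx libraries. The sum does not separate types of T cell. Against Healthy, both tested markers of epidermal gamma-delta T cells were called lower in every other group. Their median log2 fold change was -1.42 for 8w off Tx, -1.25 under treatment and -1.05 for AA. The part of such shifts between T cell types in the ratios to Cd3 was not tested. The log2 ratio of Cxcr6 to Cd3 was -0.65 ± 0.37 in Healthy, -0.25 ± 0.31 in AA, 0.087 ± 0.27 with Systemic JAK1i and 0.027 ± 0.21 in 8w off Tx skin (SD, n = 6). It was higher by 0.74 in Systemic JAK1i and by 0.68 in 8w off Tx than in Healthy skin (exact permutation test, both p = 0.0043, adjusted p = 0.019 over 18 tests). In AA it was higher than in Healthy by 0.40 (exact permutation test, p = 0.080, adjusted p = 0.18). In CPM, Cxcr6 itself overlapped between treated and Healthy skin, and the Cd3 sum averaged 13.2 ± 1.70 CPM in treated and 20.6 ± 5.47 CPM in Healthy libraries. Without Healthy A and E, the 2 libraries with the fewest muscle reads, the differences were 0.63 and 0.57 and the adjusted p was 0.086 for both. Without 8w off Tx A and E, the 8w off Tx difference from Healthy was 0.64 (adjusted p = 0.11).

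Ccl5 per Cd3 was -3.80 ± 0.58 in Healthy and -2.14 ± 0.75 in AA, higher by 1.66 (exact permutation test, p = 0.0043, adjusted p = 0.019). It was also higher in 8w off Tx than in Healthy skin, by 1.957 (exact permutation test, p = 0.0022, adjusted p = 0.019). Without Healthy A and E these were 1.42 and 1.72, each with an adjusted p of 0.086. Cxcr3 per Cd3 differed in none of the 6 comparisons, with adjusted p from 0.19 to 0.93 by the exact permutation test.

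**Figure D4:**
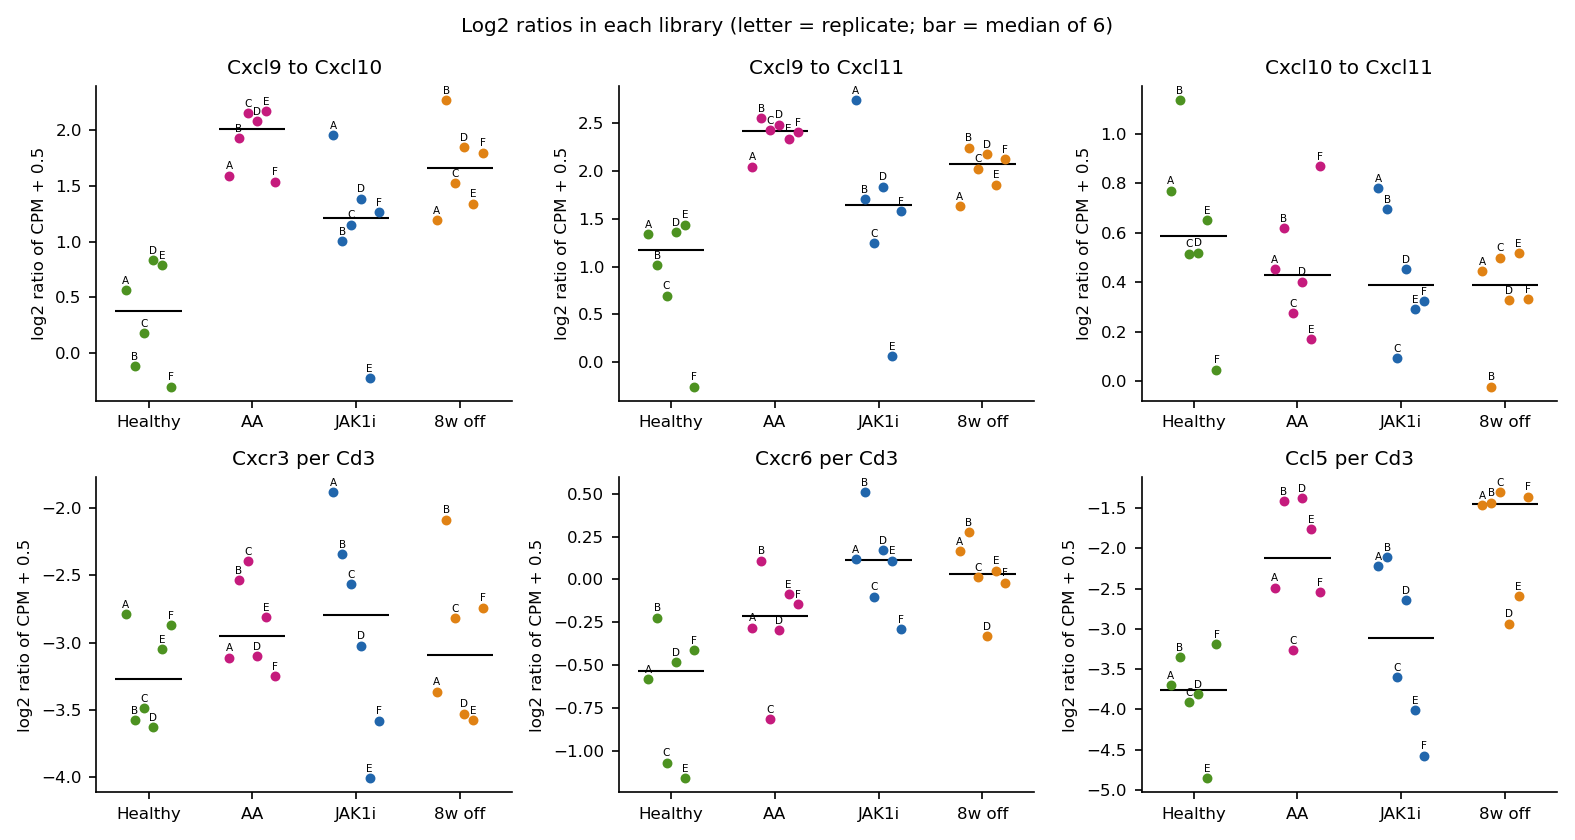
Log2 ratios of CPM + 0.5 in each library by group, for the 3 pairs of CXCR3 ligands (upper row) and for Cxcr3, Cxcr6 and Ccl5 over the summed Cd3 genes (lower row), with the replicate letter at each point and a bar at the median of 6. Cxcl9 to Cxcl10 and Cxcl9 to Cxcl11 in AA lie wholly above Healthy.

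The same libraries of a group were often high or low for several members. AA E was the highest AA library for 6 of the 7 genes, and AA C or AA F was the lowest for all 7. Systemic JAK1i A was the highest treated library for 5 and among the top 2 for all 7. Of the 8w off Tx libraries, F was among the top 2 for all 7, B was the highest for 4, and E or D was the lowest for all 7. Marker sums moved along only in part. The summed CPM of 10 T cell markers was lowest in AA C (42.6) and highest in AA E (160), and highest among treated libraries in Systemic JAK1i A (51.5). In 8w off Tx skin the T cell sum was lowest in D (53.5 CPM) and highest in A (138 CPM), a library among the top 2 for 2 members. The muscle sum of 8w off Tx skin was lowest in B (7545 CPM) and highest in E (35685 CPM). In AA the muscle sum was lowest in B (5935 CPM) and highest in A (16149 CPM), which was highest or lowest for 0 members. The part of these cell mixtures in the members' values was not tested. Without 8w off Tx A and E, 6 of 7 members stayed called in 8w off Tx against Healthy and 5 of 7 in 8w off Tx against Systemic JAK1i, where Cxcr6 was lost (log2 fold change 0.62, adjusted p = 0.081).

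**Figure D5:**
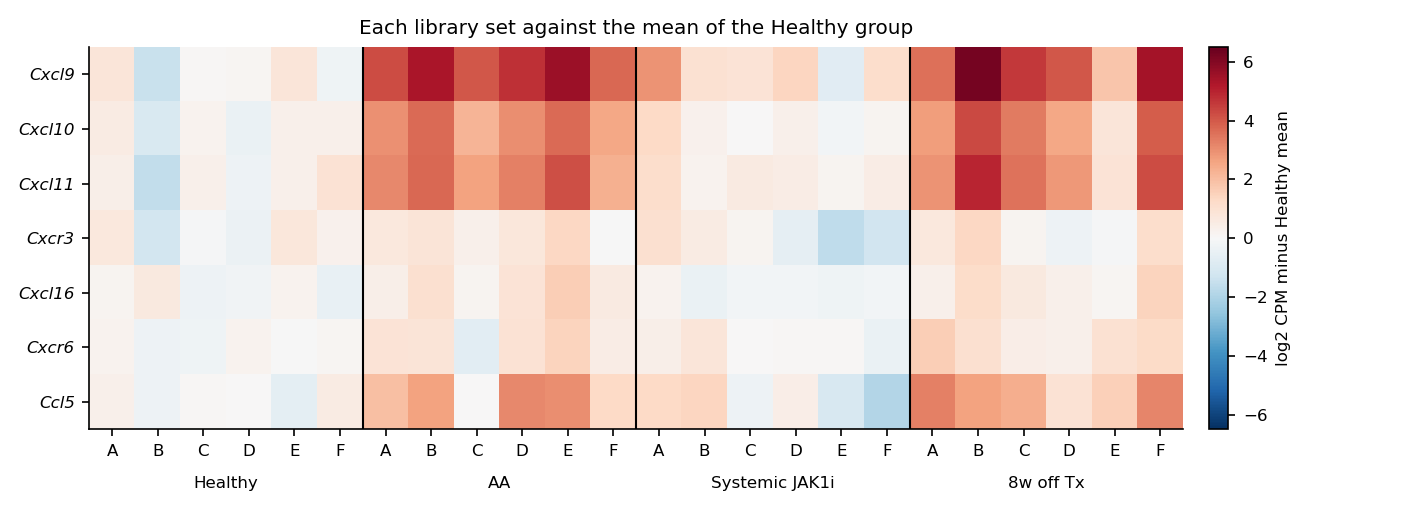
Heat map of log2 CPM minus the Healthy mean for the 7 genes (rows) in the 24 libraries (columns, by group and replicate letter). Cxcl9 reaches 5.55 in AA E and 6.21 in 8w off Tx B, and Systemic JAK1i A stands at 2.92 where the other treated libraries are paler.

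Marker lists of the cells that carry or make these chemokines changed in part. For this and the later lists, the calls over all 16248 genes tested were as follows. In AA against Healthy 3394 were higher and 3139 lower, and in Systemic JAK1i against AA 3718 and 4037. In 8w off Tx 2753 were higher and 2558 lower than in Healthy, and 3144 and 2697 than in Systemic JAK1i. Of 10 T cell markers, 5 rose in AA against Healthy and 0 fell, with a median log2 fold change of 0.97. Cd8a, a chain of the CD8 co-receptor of cytotoxic T cells, had a log2 fold change of 5.61 ± 0.84 (adjusted p = 1.8e-06), while Cd3e, part of the T cell receptor complex, had one of 0.16 ± 0.22 (adjusted p = 0.61). Under Systemic JAK1i 8 of the 10 fell against AA. Against Healthy, 1 of the 10 T cell markers was called higher under Systemic JAK1i and 0 lower, beside 83 and 87 of all 16248 genes. The largest log2 fold change of the list in that comparison was 5.77 and the median -0.32. Of 8 monocyte and macrophage markers 5 rose in AA and 5 fell under treatment against AA. Their sums ranged from 163 to 275 CPM in Healthy, 264 to 474 in AA, 157 to 327 in Systemic JAK1i and 180 to 357 in 8w off Tx libraries. For the T cell markers the ranges were 32.7 to 55.1, 42.6 to 160, 27 to 51.5 and 53.5 to 138 CPM, and for 4 NK cell markers 4.92 to 12.9, 11.6 to 32.8, 4.56 to 7.73 and 11.1 to 25.7 CPM. No T cell, NK cell or macrophage marker was at 0 in all 24 libraries, though Cd8b1, the other chain of CD8, had 0 counts in every Healthy library and 1.22 to 15.6 CPM in AA libraries.

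Of a list of other chemokines, chemokine receptors and proteases tied to this axis, 10 of 13 genes were tested. In AA 3 rose and 3 fell, beside 3394 and 3139 of all 16248 genes, with a median log2 fold change of -0.10, against 0.0011 over all genes. Among those that rose were Ccr1, a receptor of CCL5, with a log2 fold change of 4.00 ± 0.76 (adjusted p = 6.7e-05), and Adam10, a protease that sheds CXCL16, with one of 0.47 ± 0.07 (adjusted p = 3.1e-05). Those that fell were atypical chemokine receptors, which bind chemokines without G protein signalling. Ackr2, which takes up inflammatory CC chemokines such as CCL5, ranged from 34.5 to 42.7 CPM in Healthy and from 3.17 to 11 CPM in AA libraries, with no overlap and a log2 fold change of -2.37 ± 0.27 (adjusted p = 1.4e-06). Ackr1 fell by 1.80 ± 0.28 and Ackr4, which takes up ligands of CCR7, by 1.87 ± 0.16 on the log2 scale (adjusted p = 2.6e-05 and 7.7e-08). These 5 genes moved the other way under Systemic JAK1i against AA, with log2 fold changes of -3.39 for Ccr1, -0.55 for Adam10, 1.71 for Ackr2, 1.19 for Ackr1 and 1.58 for Ackr4 (adjusted p at most 0.0012). All 4 endothelial markers, of a cell type that carries Ackr1, fell in AA and rose under treatment against AA. The part of endothelial RNA in the values of Ackr1 was not tested. Dpp4, a peptidase that trims CXCR3 ligands, had a log2 fold change of 0.12 ± 0.22 in AA (adjusted p = 0.71).

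Of 13 tested genes of interferon gamma signalling and Th1 cells, 8 rose and 2 fell in AA, beside 20.9% of all genes called higher. Their median log2 fold change was 1.76. Stat2 and Irf9, transcription factors of the interferon response, had log2 fold changes of 2.15 ± 0.21 (adjusted p = 2.8e-07) and 1.22 ± 0.13 (adjusted p = 8.8e-07). Those that fell, named here after their values were seen, were Ifngr1, a chain of the interferon gamma receptor (-0.56), and Il12rb2, a chain of the interleukin-12 receptor (-1.34). Ifng itself was read at 0 to 0.25 CPM in Healthy, 0.26 to 5.16 CPM in AA, 0 to 1.65 CPM in Systemic JAK1i and 0.36 to 5.21 CPM in 8w off Tx libraries. Jak1, the kinase that Cmpd A inhibits, had a log2 fold change of -0.11 ± 0.08 in AA and 0.09 ± 0.08 under Systemic JAK1i against AA (adjusted p = 0.26 and 0.33). Under treatment 8 of the 13 fell and 2 rose against AA. Off treatment 9 rose and 2 fell against Healthy.

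Of 18 genes that carry the signal below chemokine receptors, 6 rose and 1 fell in AA, beside 20.9% of all genes called higher. Their median was 0.10. Itgal, the alpha chain of the integrin LFA-1, had a log2 fold change of 1.55 ± 0.30 (adjusted p = 0.00033), and Grk6, a receptor kinase, one of 0.40 ± 0.08 (adjusted p = 0.00063). Arrb1, a beta-arrestin, fell (-0.54 ± 0.11, adjusted p = 0.00039). In Systemic JAK1i against AA 7 of the 18 fell and 1 rose, beside 24.8% of all genes called lower. In 8w off Tx against Healthy 5 rose and 2 fell, beside 16.9% of all genes called higher.

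The genes whose pattern over the 24 libraries was most like each member were found by the root mean square difference of log2 CPM, centred on the Healthy mean, over 15332 genes. For Cxcl9 they were Ubd (0.42), a ubiquitin-like protein, Gbp8 (0.56) and Tgtp2 (0.59), both GTPases of interferon-inducible families. For Cxcl10 the nearest ID had no symbol, followed by Gbp4 and Gbp3 (both 0.38), and for Cxcl11 they were Batf2 (0.48), a transcription factor, Gm4951 (0.55) and Gbp7 (0.58). The receptors stood nearer to leukocyte genes. For Cxcr3 they were Sash3 (0.37), Dock2 (0.42) and Myo1f (0.42), and for Cxcr6 Themis (0.34) and Lat (0.34), both adaptors of T cell receptor signalling, and Atp8b4 (0.35). For Cxcl16 they were Mill1 (0.23), Icam1 (0.24), an adhesion molecule, and Efhd2 (0.24), and for Ccl5 Ms4a4b (0.67), Ubash3a (0.71) and Cd226 (0.72). Among the members themselves the nearest pair was Cxcl10 and Cxcl11 (0.33). A small difference can also come from a small range of values, as for Cxcl16, and says nothing of shared control.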

How the data were processed

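Total RNA of dorsal skin (about 50 mg per the labels, a smaller piece per the study's methods), of low integrity and so not fragmented, was made into stranded libraries after ribosomal RNA depletion (a label field names polyA RNA instead) and read as 2 × 76 bases. The authors aligned reads to mm10 with HISAT2 2.0.1 and deposited raw counts per gene from featureCounts 1.4.4 and a table of TPM. The annotation release, the strand and multi-mapping settings and the tool that made the TPM were not given by the sources used here. Of the columns of each of these files, 6 matched no sample and were not used.

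From the deposited counts, genes were kept by edgeR's filterByExpr and normalized by TMM, and 1 quasi-likelihood fit over the 4 groups (edgeR 4.0.16, R 4.3.3) gave the 6 comparisons with Benjamini-Hochberg adjustment over all genes tested, with normal 95% intervals from the standard error. The fit treats the 24 samples as independent, though Systemic JAK1i and 8w off Tx came from the same mice. DESeq2 1.42.0 and limma 3.58.1 (limma-voom, and limma on log2 TPM) were alternatives, with other filters and left-out libraries. Ratios of log2(CPM + 0.5) were compared by two-sided exact permutation tests over samples. Scripts were tested on simulated data. Among genes with over 20 counts in a pair of libraries, no pair had equal counts in more than 2.51%. The intervals include the spread between samples, while floors (3 counts) cover counting error only.

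The members and gene lists were chosen with earlier results of these data known. From each list the text names up to 3 genes with the smallest adjusted p in AA against Healthy, and any gene that a member's result turns on. Some genes that this rule names are not reported here. Promoters came from RefSeq (GRCm38.p6).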

Additional observations from a re-analysis of the deposited data

Results flagged for a closer look

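In 4 of the 7 genes, Systemic JAK1i A stood apart in CPM from the other 5 treated libraries, with a gap to the next library over the Dixon critical value for 6 samples. The gaps of the genes were not tested on the log2 scale, where a high library stands out less. It had 39.8 CPM of Cxcl9, 9.88 CPM of Cxcl10, 5.54 CPM of Cxcl11 and 47.0 CPM of Cxcl16. The same library had the highest treated sums of T cell markers (51.5 CPM), monocyte and macrophage markers (327 CPM) and interferon gamma genes (1101 CPM), while its muscle sum of 16234 CPM lay within the treated range of 15455 to 19873 CPM and its depth was 6591123 counts. The part of its cell mixture in these values was not tested.

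The log2 ratio of Cxcl10 to Cxcl11 in 8w off Tx B was -0.023, against 0.33 to 0.52 in the other 5 libraries of that group. Such gaps were looked for in 52 groups of 6 values and found in 5, most of them in Systemic JAK1i A. The critical value is passed by chance in about 1 in 20 groups if values are normal and groups independent. Genes of the same library are not independent and CPM can be skewed, so the number found cannot be set against that rate.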

How the results depend on the processing

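The number of the 7 genes called was the same as reported with RLE size factors, without the filter on low counts, with a filter of 20 counts in 6 libraries and DESeq2. It was within 1 of the reported number with only the 2 groups compared, or without Healthy A and E or 8w off Tx A and E. By limma-voom Systemic JAK1i against AA gave 7, and centred TPM, chosen after seeing the data, gave 5, 6, 0, 6, 0 and 5 in the 6 comparisons. Leaving out each library in turn gave 5 to 6 called in AA against Healthy, Systemic JAK1i against AA, 8w off Tx against Healthy and 8w off Tx against Systemic JAK1i, and 0 in the others. Same-letter correlations between groups ran from -0.24 to 0.41, and at most 2 of 6 pairs in a comparison were over 0.1. In 8w off Tx against Systemic JAK1i the largest was 0.38. Such correlations cannot decide whether a letter marks the same mouse, since samples of 1 mouse can also differ in cell mixture. With a replicate block no count of calls moved, and Cxcl9 in 8w off Tx against AA was -0.025. The cause of the changes below was not tested beyond the shift of the TPM median.

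With TPM and a pseudocount of 0.1, calls numbered 3 in AA against Healthy, 3 in Systemic JAK1i against AA, 3 in 8w off Tx against Healthy and 2 in 8w off Tx against Systemic JAK1i. With a pseudocount of 1 they were 4, 3, 3 and 3, and without a filter 3, 3, 3 and 2. Signs turned with pseudocounts of 0.1 and 1 (in that order) for Cxcr6 in Systemic JAK1i against AA (0.18, 0.13), Cxcl16 in Systemic JAK1i against Healthy (0.23, 0.21), Cxcr3 (-0.20, -0.085) and Cxcl16 (-0.12, -0.10) in 8w off Tx against Healthy, and Cxcr3 (-0.18, -0.099), Cxcl16 (-0.35, -0.31) and Cxcr6 (-0.43, -0.35) in 8w off Tx against Systemic JAK1i. They also turned in 8w off Tx against AA for Cxcl9 (-0.78, -0.67), Cxcl10 (-0.50, -0.44), Cxcl11 (-0.40, -0.28), Cxcr6 (-0.25, -0.22) and Ccl5 (-0.45, -0.39), and with a pseudocount of 1 for Cxcr3 in Systemic JAK1i against Healthy (0.013). Leaving out the filter gave the same values.

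Other turned signs were all in differences that were not called. Centred TPM gave -0.016 for Cxcl10 in Systemic JAK1i against Healthy and -0.25 for Cxcl9 in 8w off Tx against AA. Limma-voom gave -0.40 for Ccl5 in the former and -0.15 for Cxcl9 in the latter. Without Healthy A and E Cxcr3 was 0.29 in Systemic JAK1i against Healthy, and without 8w off Tx A and E Cxcl16 was 0.11 in 8w off Tx against AA. Leaving out single libraries, Cxcr3 in Systemic JAK1i against Healthy ran from -0.59 to 0.043. In 8w off Tx against AA Cxcl9 ran from -0.44 to 0.33, Cxcl10 from -0.12 to 0.40, Cxcl11 from -0.088 to 0.62, Cxcr3 from -0.35 to 0.058, Cxcl16 from -0.28 to 0.13 and Ccl5 from -0.028 to 0.41.

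For the log2 ratios, Cxcr3 per Cd3 in 8w off Tx against AA was 0.072 without 8w off Tx A and E and 0.41 in TPM. Against Systemic JAK1i it was 0.11, 0.49 in TPM and 0.10 with an offset of 0.1 CPM, and Cxcr6 per Cd3 was 0.24 in TPM. Cxcl10 to Cxcl11 was 0.26 in AA against Healthy, 0.10 in 8w off Tx against Healthy and 0.36 in 8w off Tx against Systemic JAK1i in TPM, and 0.0068 in Systemic JAK1i against AA with an offset of 0.1 CPM. Leaving out single libraries, Cxcr3 per Cd3 ran from -0.24 to 0.19 in Systemic JAK1i against AA and from -0.34 to 0.084 in 8w off Tx against Systemic JAK1i, Cxcr6 per Cd3 from -0.14 to 0.024 in the latter, and Cxcl10 to Cxcl11 from -0.094 to 0.055 in the former. Depth limits Cxcr3 and Ccl5, with at most 92 and 203 counts per group.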

Other observations

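Of 13 other CXC chemokines and their receptors, 6 were tested, the others being too low. In AA against Healthy 2 rose and 0 fell: Cxcr4, the receptor of CXCL12, was at 0.95 ± 0.28 on the log2 scale (adjusted p = 0.0089 in edgeR) and Cxcr2, a neutrophil receptor, one of 1.404 ± 0.429 (adjusted p = 0.012). Cxcl13, a B cell attractant, had one of 1.79 (adjusted p = 0.11). In Systemic JAK1i against AA 4 of the 6 fell, in 8w off Tx against Healthy edgeR called 0 (1 at an unadjusted p below 0.05, Cxcr4), and in 8w off Tx against Systemic JAK1i 3 rose. Cxcl14, made by keratinocytes and fibroblasts and named after its values were seen, was lower under Systemic JAK1i than in Healthy skin (log2 fold change -1.003 ± 0.242, adjusted p = 0.045), a comparison in which none of the 7 members was called.

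Other marker lists gave the following counts in AA against Healthy, where 3394 of all 16248 genes tested were called higher and 3139 lower. Of 7 dendritic and Langerhans cell markers 2 rose and 4 fell, both tested markers of epidermal gamma-delta T cells fell, and 1 of the 2 tested NK cell markers rose. Of 4 fibroblast markers 1 fell, of 5 keratinocyte markers 2 rose, and 0 of 10 muscle genes were called. In Systemic JAK1i against AA 2 of the muscle genes and 2 of the fibroblast markers rose, and 2 of the keratinocyte markers fell.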
